A study of Mus musculus with 6 samples.

Results

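The FOXO transcription factors and a group of genes that respond to fasting were examined in fibroblast-derived adipocyte cultures with and without Nelfb, a subunit of the NELF complex that holds RNA polymerase II near gene starts. The group held 10 genes, Foxo1, Foxo3, Foxo4, Depp1, Pdk1, Pdk2, Pdk3, Pdk4, Txnip and Arrdc4, found by their symbols among the 17924 genes of the deposited table, and all 10 had enough reads to be tested. The set was chosen in part by the decrease of Depp1 in the cells without Nelfb, so the values of Depp1 are described without a test. Fibroblasts came from the dorsal dermis of newborn (P0) C57BL/6J mice and were kept in adipocyte differentiation medium for 14 days before RNA-seq, with 3 biological replicates in each group. CTL cells were Nelfb fl/wt or Nelfb wt/wt and Nelfb-/- cells were Nelfb fl/fl. Cells of both groups carried Pdgfra-Cre, a recombinase driven by a promoter of the fibroblast and preadipocyte lineage, so that cells of other lineages in the culture would keep their floxed Nelfb alleles.

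FOXO factors are forkhead transcription factors that insulin holds outside the nucleus through phosphorylation by Akt. When insulin falls, as in fasting, they enter the nucleus and switch on genes that spare glucose. Pyruvate dehydrogenase kinases (Pdk1 to Pdk4) phosphorylate the pyruvate dehydrogenase complex and thereby close the entry of pyruvate into the citric acid cycle, with Pdk4 as the form best known to rise in fasting. Txnip and Arrdc4 are related alpha-arrestins that restrain glucose uptake and answer to sugar phosphates through the factors MondoA and ChREBP. Depp1 encodes a small protein that FOXO factors induce.

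The promoter sequences of 4 members are shown here, those of Depp1 with its large difference between groups, of Pdk4 as the fasting-induced kinase, and of the related pair Txnip and Arrdc4, whose log2 fold changes had opposite signs, with that of Txnip not passing the test. They were taken from RefSeq (GRCm38.p6), which gave 11 promoter entries for 9 of the 10 members and none for Foxo4. Each runs 5′ to 3′ on the strand of the gene and ends at the base before the gene start of the deposited table. Capitals mark exact matches to 6 short motifs searched on both strands, so variants of these sequences are not marked. Depp1 is shown at chr6:116650434-116650608 (plus strand), Pdk4 at chr6:5496310-5496528 (minus strand), Txnip at chr3:96557707-96557956 (plus strand) and Arrdc4 at chr7:68749242-68749488 (minus strand).
Depp1: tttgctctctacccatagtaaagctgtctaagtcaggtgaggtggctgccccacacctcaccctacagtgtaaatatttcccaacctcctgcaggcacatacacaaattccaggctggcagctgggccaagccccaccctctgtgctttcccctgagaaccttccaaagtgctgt
Pdk4: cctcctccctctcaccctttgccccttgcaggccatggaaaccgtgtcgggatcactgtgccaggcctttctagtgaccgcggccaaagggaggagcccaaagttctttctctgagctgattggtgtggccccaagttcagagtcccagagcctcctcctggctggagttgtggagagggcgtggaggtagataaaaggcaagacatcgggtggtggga
Txnip: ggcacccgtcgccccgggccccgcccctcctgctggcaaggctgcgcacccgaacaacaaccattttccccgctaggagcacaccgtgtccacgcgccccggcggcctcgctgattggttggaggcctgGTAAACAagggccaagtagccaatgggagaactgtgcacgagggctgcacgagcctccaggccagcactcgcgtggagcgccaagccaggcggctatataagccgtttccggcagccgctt
Arrdc4: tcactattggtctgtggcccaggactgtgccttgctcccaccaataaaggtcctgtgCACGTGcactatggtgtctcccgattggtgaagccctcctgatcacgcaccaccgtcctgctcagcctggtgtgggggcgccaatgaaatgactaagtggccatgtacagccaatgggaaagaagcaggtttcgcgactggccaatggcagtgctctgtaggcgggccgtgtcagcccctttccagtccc
The motifs were the forkhead sequence GTAAACA, the insulin response sequence CAAAACA, the E-box CACGTG, the hypoxia response core ACGTG (contained in the E-box), the glucocorticoid half-site AGAACA and the nuclear receptor half-site AGGTCA. In the 250 bases before the RefSeq start, the forkhead sequence was found in Txnip alone among the 9 members with an entry. It lay 121 bases before the start, and 3.17% of all 32851 promoter entries had one. An E-box lay 193 bases before the start of Arrdc4 and 126 bases before that of Pdk2, against 6.02% of all entries with one. The hypoxia core also lay in Pdk3, 53 bases before its start (16.6% of all entries), and the glucocorticoid half-site was found at 2 places in the second promoter entry of Pdk1 (16.1% of all entries). Depp1 and Pdk4 had no exact match to any of the 6 motifs in this window, and neither did Foxo1 and Foxo3. Variants of the motifs were not searched, so these results do not show that such sites are absent. The insulin response sequence and the nuclear receptor half-site, found in 5.56% and 14.0% of all entries, matched none of the 9 members with an entry.

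Nelfb had 17.3, 19.6 and 22.3 CPM (reads per 1000000 that were assigned to any gene of the table) in CTL replicates 1, 2 and 3 and 5.50, 3.90 and 5.55 CPM across Nelfb-/- replicates 1 to 3 (log2 fold change -1.99, SE 0.22, adjusted p = 0.0050 by limma). The libraries held 17.2 to 29.4 M reads (M, 1000000). Genes were called changed when the adjusted p was 0.05 or lower and the change reached 2-fold, and of the 16252 genes tested, 3.64% were called lower and 7.58% higher in Nelfb-/- cells. All 12 adipocyte markers, Fabp4 and Adipoq among them, were detected in every library, and their summed level was 19982 to 30059 CPM in CTL and 9916 to 19423 CPM in Nelfb-/- libraries, with CTL replicate 3 the lowest of the controls. Fabp4 was the largest part of that sum in every library and was not called (-1.04, adjusted p = 0.24 by limma), and neither was Adipoq (-1.07, adjusted p = 0.14 by limma). Of the 12, 10 had a negative log2 fold change, against 7384 of the 16252 genes tested. The median of the 12 was -1.03, against 0.068 for all genes tested. In 7 of the 12, no Nelfb-/- library reached the lowest CTL library, which held for 16.1% of all genes. Retn, Adig and Slc2a4 were called lower (25% of the 12, against 3.64% of all genes). Lep was called higher (5.26, adjusted p = 0.014 by limma), and Cidec had 0.029. Macrophage markers were 221 to 801 CPM in CTL and 2159 to 6754 CPM in Nelfb-/- libraries, highest in Nelfb-/- replicate 1, and 11 of 12 were called higher. Preadipocyte and fibroblast markers were 2564 to 9302 CPM in CTL and 4991 to 15879 CPM in Nelfb-/- libraries, highest among the controls in replicate 3, with Col1a1 the largest part in every library and not called (1.47, adjusted p = 0.29 by limma). Of 10 tested, Dlk1 (3.37) and Dpp4 (2.20) were called higher. Skeletal muscle markers, all 8 tested called higher, were 9.97 to 12.2 CPM in CTL and 62.0 to 118 CPM in Nelfb-/- libraries. Of 6 melanocyte markers 5 were called higher, and Tyrp1 had at most 0.0680 CPM in CTL and 11.5 to 34.9 CPM in Nelfb-/- libraries. Of 5 tested Schwann cell markers 3 were called higher and 1 lower, with sums of 54.9 to 69.9 CPM in CTL and 127 to 164 CPM in Nelfb-/- libraries. Endothelial and keratinocyte markers had 1 of 6 and 1 of 3 tested genes called higher. The part of these markers in the results below was not tested. In bulk RNA, fewer cells of a type cannot be told apart from less RNA per cell.

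Of the 9 genes other than Depp1, 7 had a negative log2 fold change (Nelfb-/- over CTL), against 7384 of the 16252 genes tested. Foxo1 was lower in every Nelfb-/- library than in every CTL library, Txnip likewise by a small gap, and Arrdc4 was higher in every Nelfb-/- library. Among all genes tested, 16.1% lay apart in this way downwards and 22.0% upwards. The median log2 fold change of these 9 genes was -0.58, against 0.068 for all genes tested. Of these 9, Arrdc4 was the 1 gene called, while 11.2% of all genes were called in either direction, so nothing is read from this count. Foxo1 passed the adjusted p without a 2-fold change, while 15.8% of all genes passed that p.

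**Figure D1:**
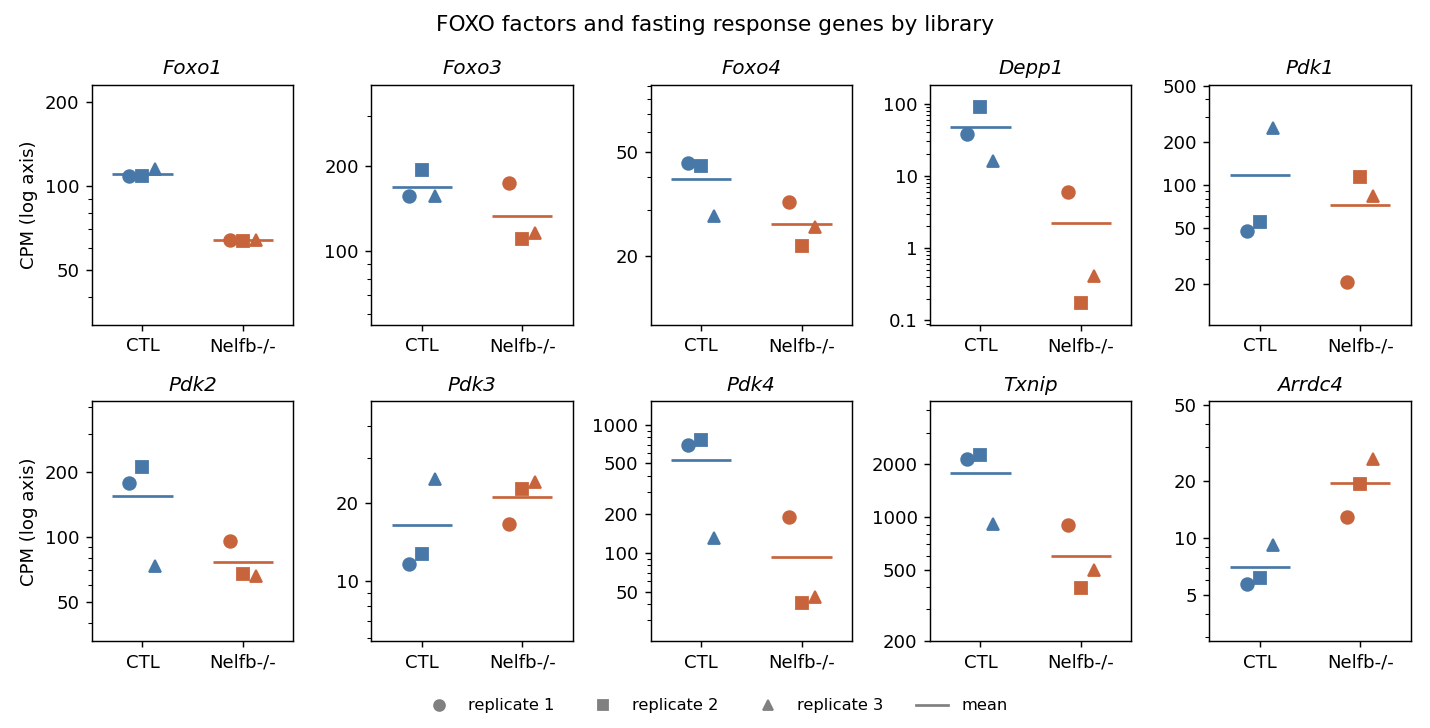
Each panel plots the CPM of 1 gene on a log axis, with a point for each of the 3 CTL (blue) and 3 Nelfb-/- (orange) libraries and a line at the group mean. Foxo1, Depp1, Txnip and Arrdc4 show groups that do not overlap, whereas CTL replicate 3 (triangle) lies within the Nelfb-/- range for Foxo3, Foxo4, Pdk2 and Pdk4 and just above it for Pdk3 (24.9 against at most 24.2 CPM).

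Foxo1 (ENSMUSG00000044167, chromosome 3 from 52268336 to 52353221, GRCm38), the FOXO factor best studied in adipocyte differentiation, was the most evenly measured of the 10 genes. It had 108, 109 and 115 CPM across CTL replicates 1 to 3, against 63.9, 63.8 and 64.2 CPM across Nelfb-/- replicates 1 to 3. The groups were well apart, with means of 111 ± 3.85 CPM (SD, n = 3) for CTL and 63.95 ± 0.233 CPM for Nelfb-/- cells. Foxo1 thus fell by 0.79 on the log2 scale (SE 0.11, adjusted p = 0.0086 by limma), a 1.73-fold change that stays under the 2-fold limit. With 1 library removed at a time, the log2 fold change lay between -0.81 and -0.76, with an adjusted p of 0.061 without Nelfb-/- replicate 3 as the one value above 0.05. Exons of Foxo1 share 589 bases with Gm20402 on the other strand (not analysed here), and whether the counting used strand is not stated.

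Foxo3 (ENSMUSG00000048756, chromosome 10 from 42181841 to 42276755), the member tied to muscle wasting and stress resistance, had 157, 194 and 156 CPM across the controls, against 174, 110.2 and 116 CPM across the Nelfb-/- replicates. Nelfb-/- replicate 1 lay inside the range of CTL, so the groups overlapped. Its log2 fold change was -0.36 (95% interval -0.87 to 0.15, adjusted p = 0.29 by limma). Foxo4 (ENSMUSG00000042903, chromosome X from 101254528 to 101260873) had 45.3, 44.4 and 28.4 CPM across the controls, against 32.1, 21.8 and 25.8 CPM without Nelfb. Here CTL replicate 3 lay below Nelfb-/- replicate 1, and the log2 fold change was -0.55 (SE 0.24, adjusted p = 0.17 by limma). Without CTL replicate 3 the value of Foxo4 was -0.77 (adjusted p = 0.042 by limma). The X-linked Xist, the RNA of the inactive X chromosome, had 771, 29.8 and 15.3 CPM across the controls, against at most 0.427 CPM in Nelfb-/- libraries. The groups thus differed in Xist as well as in Nelfb. The part of this difference in the other values, those of the X-linked Foxo4 and Pdk3 included, was not tested. Foxo6, the remaining family member, is mainly a gene of the brain and had 0.271 to 0.748 CPM in CTL and 0.379 to 0.979 CPM in Nelfb-/- cells (log2 fold change 0.40, adjusted p = 0.64 by limma).

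Per kilobase of exon, Foxo3 had the highest level of the 3 FOXO factors in every library, at 20.7 to 25.6 CPM per kb in CTL and 14.6 to 23.04 CPM per kb in Nelfb-/- cells. Foxo3 made up 44.8%, 50.3% and 49.1% of the sum of the 3 in CTL replicates and 58.2%, 51.7% and 50.8% in Nelfb-/- replicates. Foxo1 and Foxo4 overlapped in CTL (12.5 to 13.3 and 8.14 to 13.01 CPM per kb) and again in Nelfb-/- cells (7.36 to 7.41 and 6.25 to 9.21 CPM per kb).

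Depp1 (ENSMUSG00000048489, chromosome 6 from 116650609 to 116652794) showed the largest difference of the 10 genes, the one the set was chosen by. It had 37.7, 90.3 and 16.2 CPM across CTL replicates 1 to 3, against 6.07, 0.175 and 0.408 CPM across Nelfb-/- replicates 1 to 3. The last 3 values correspond to about 128, 3 and 10 reads, so that Nelfb-/- replicate 2 was at the floor of 3 reads used here. Depp1 was spread 5.57-fold within CTL and 34.8-fold within Nelfb-/- cells, and Nelfb-/- replicate 1 stood nearest to the controls. Its log2 fold change was -5.49 (SE 1.28) and ranged from -6.92 without Nelfb-/- replicate 1 to -4.52 without Nelfb-/- replicate 2. On the per-length scale Depp1 ranked after Txnip, Pdk4 and Pdk2 in CTL, with 35.4 ± 28.1 CPM per kb, and last in Nelfb-/- cells, with 1.63 ± 2.46 CPM per kb, where its range overlapped that of Arrdc4.

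**Figure D2:**
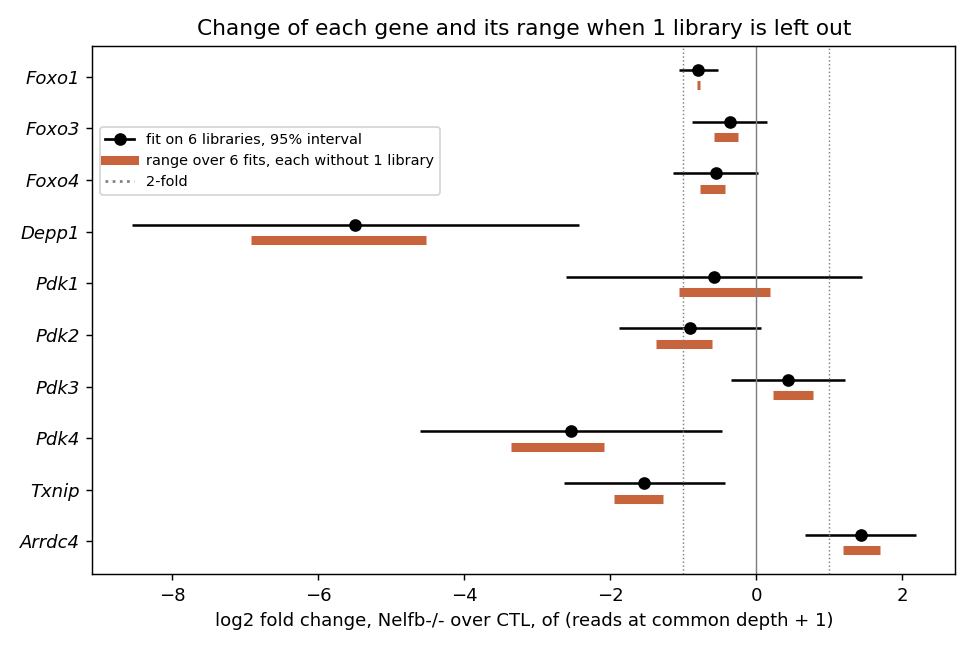
The horizontal axis is the log2 fold change of Nelfb-/- over CTL on reads at a common depth plus 1, black points with lines give the fit on 6 libraries with its 95% interval, and orange bars give the range over 6 fits that each leave out 1 library. The bar of Foxo1 is the narrowest (-0.81 to -0.76), and that of Pdk1 is the only one that crosses 0 (-1.06 to 0.19).

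Among the pyruvate dehydrogenase kinases, Pdk4 had the largest difference, followed by Pdk2, while the differences of Pdk1 and Pdk3 were smaller and of opposite sign. Of these 4 genes, 0 passed the limits with limma on all 6 libraries, and 1, Pdk4, had an unadjusted p under 0.05. Pdk4 (ENSMUSG00000019577, chromosome 6 from 5483351 to 5496309) had 700.2, 762 and 131 CPM across CTL replicates 1 to 3, against 192, 41.0 and 45.7 CPM across Nelfb-/- replicates 1 to 3. CTL replicate 3 was thus below Nelfb-/- replicate 1, and the 2 groups overlapped through these 2 libraries alone. The log2 fold change of Pdk4 was -2.53 (SE 0.86, 95% interval -4.60 to -0.47, adjusted p = 0.096 by limma). It was -3.36 without CTL replicate 3 (adjusted p = 0.026 by limma) and -3.25 without Nelfb-/- replicate 1 (adjusted p = 0.046 by limma), both past the limits.

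Pdk2 (ENSMUSG00000038967, chromosome 11 from 95026258 to 95041354), the broadly expressed kinase, had 178, 211 and 73.4 CPM across the controls, against 95.6, 67.3 and 65.6 CPM without Nelfb. CTL replicate 3 again lay within the Nelfb-/- range. The log2 fold change was -0.90 (SE 0.41, adjusted p = 0.18 by limma), and without CTL replicate 3 Pdk2 was called lower at -1.37 (adjusted p = 0.013 by limma). Pdk3 (ENSMUSG00000035232, chromosome X from 93764607 to 93832201), an X-linked kinase of the family, had 11.7, 12.7 and 24.9 CPM across the controls, against 16.6, 22.8 and 24.2 CPM without Nelfb. Here CTL replicate 3 was the highest library of all, so the groups overlapped, and the log2 fold change was 0.44 (SE 0.32, adjusted p = 0.40 by limma).

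Pdk1 (ENSMUSG00000006494, chromosome 2 from 71873224 to 71903858), the kinase known as a target of the hypoxia-inducible factor, had 47.4, 54.5 and 253 CPM across CTL replicates 1 to 3, against 20.8, 113 and 83.1 CPM across Nelfb-/- replicates 1 to 3. The highest library was a control and the lowest a Nelfb-/- library, and of the other 4, both controls lay below both Nelfb-/- libraries. The log2 fold change of -0.58 (SE 0.85, 95% interval -2.61 to 1.45, adjusted p = 0.67 by limma) turned to 0.19 without CTL replicate 3 and to 0.16 without Nelfb-/- replicate 1.

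The level of Pdk1 in CTL replicate 3 was 4.96-fold that of the mean of CTL replicates 1 and 2. A list of 23 hypoxia-responsive genes, written after the values of Pdk1 had been seen, was set beside it as a description. In CTL replicate 3, 15 of the 23 genes (65.2%) were more than 2-fold above the mean of the other 2 controls, against 11.2% of all genes tested. Ldha, lactate dehydrogenase, had 415, 444 and 1999 CPM across the controls, against 216, 880.2 and 672 CPM without Nelfb, the same order of libraries as Pdk1. Egln3, the oxygen-sensing prolyl hydroxylase, had 115, 176 and 828 CPM across the controls, against 28.9, 181 and 129 CPM without Nelfb. Ankrd37 had the largest ratio of CTL replicate 3 to the other controls (17.3-fold), while Pfkfb3 (0.928-fold), Adm (0.983-fold) and Vegfa (1.16-fold) had ratios near 1. The oxygen supply of the cultures is not given in the sources used here, and its part in the level of Pdk1 was not tested.

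**Figure D3:**
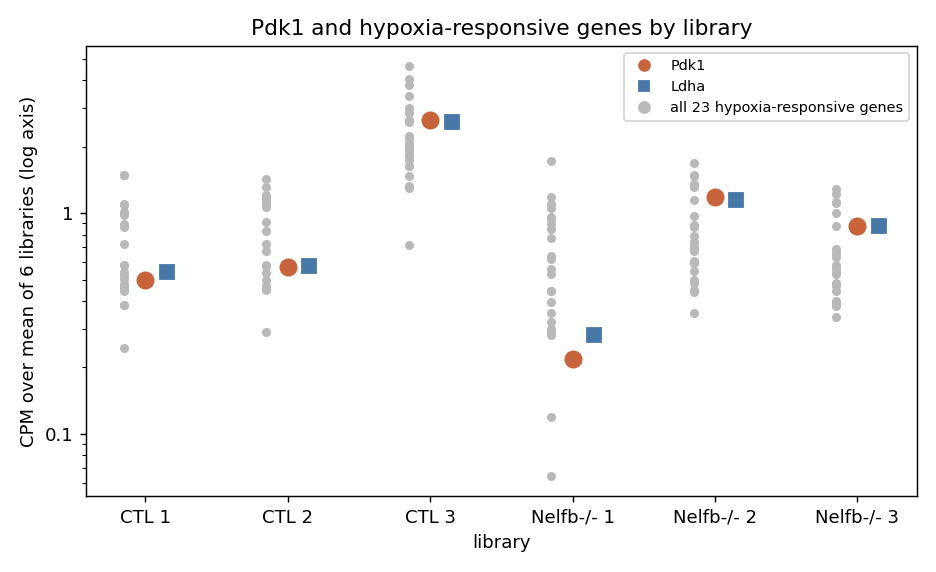
The vertical log axis gives the CPM of a gene divided by its mean over the 6 libraries, for Pdk1 (orange), Ldha (blue squares) and all 23 hypoxia-responsive genes (grey). Pdk1 and Ldha are highest in CTL 3 and lowest in Nelfb-/- 1, where Pdk1 had 253 and 20.8 CPM.

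Summed per kilobase of exon, the 4 kinases had 266, 296 and 103 CPM per kb in CTL replicates 1, 2 and 3 and 94.0, 56.4 and 53.9 CPM per kb in Nelfb-/- replicates 1, 2 and 3. All Nelfb-/- libraries lay below all CTL libraries, with CTL replicate 3 and Nelfb-/- replicate 1 close to each other. Pdk4 made up 74.9% and 73.4% of this sum in CTL replicates 1 and 2, 58.1% in Nelfb-/- replicate 1, 36.3% in CTL replicate 3, and 20.7% and 24.1% in Nelfb-/- replicates 2 and 3. The share of Pdk2 was 21.1%, 22.6% and 22.6% in CTL and 32.2%, 37.7% and 38.5% in Nelfb-/- cells. Of the 4 shares, that of Pdk2 was the one whose groups did not overlap. Pdk1 held 31.7% in CTL replicate 3 against 2.29% and 2.37% in the other controls, and 2.84%, 25.8% and 19.8% in the Nelfb-/- replicates. Shares of 1 sum move together, and an exact permutation test of 3 against 3 libraries cannot give a two-sided p below 0.1, so none was run on them.

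**Figure D4:**
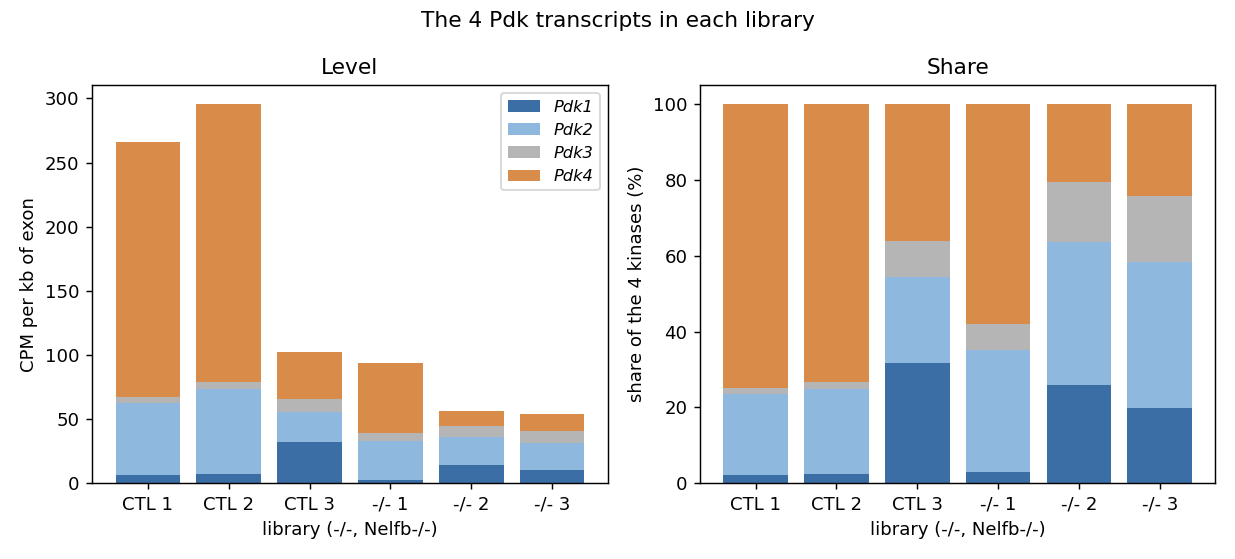
Bars give the level (left, CPM per kb of exon) and the share (right, percent of the 4 kinases) of Pdk1, Pdk2, Pdk3 and Pdk4 in each library. Pdk4 is the largest part in CTL 1, CTL 2, CTL 3 and Nelfb-/- 1, and Pdk2 in Nelfb-/- 2 and 3 (37.7% and 38.5%).

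The complex that these kinases act on turns pyruvate into acetyl-CoA in the mitochondrion. Of 12 genes for its subunits, phosphatases and the supply or use of pyruvate, 11 had a negative log2 fold change. Over all genes tested, 7384 of 16252 had one. The median of the list was -0.54, and in 9 of the 12 no Nelfb-/- library reached the lowest CTL library (16.1% of all genes lay apart in this way). Pdhb, the beta subunit of the pyruvate dehydrogenase E1 enzyme, was the 1 gene called (8.33% of the list, against 3.64% of all genes called lower), with 220, 220 and 274 CPM across the controls, against 101, 138 and 115 CPM without Nelfb (log2 fold change -1.02, SE 0.17, adjusted p = 0.014 by limma). Bckdk, the kinase of the related branched-chain keto acid dehydrogenase, passed the adjusted p at -0.85, under the 2-fold limit (adjusted p = 0.018 by limma).

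Pdha1, the subunit that the kinases phosphorylate, had 400.2, 392 and 488 CPM across the controls, against 264, 349 and 315 CPM without Nelfb (log2 fold change -0.47, adjusted p = 0.13 by limma). The other core subunits had log2 fold changes of -0.76 for Dlat, -0.56 for Dld and -0.76 for Pdhx. The phosphatase Pdp1, which reverses the action of the kinases, was the 1 gene of the list with a positive value (0.61, adjusted p = 0.15 by limma), and it had 24.98, 18.8 and 26.0 CPM across the controls, against 49.8, 30.8 and 28.6 CPM without Nelfb. Pdp2 and the phosphatase regulator Pdpr had -0.23 and -0.43. The pyruvate carriers Mpc1 and Mpc2 had -0.83 and -0.16, and pyruvate carboxylase, Pcx, had -0.53. None of these 10 genes passed the adjusted p.

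Txnip and Arrdc4, the related arrestins, had log2 fold changes of opposite sign, of which that of Arrdc4 passed the test. Txnip (ENSMUSG00000038393, chromosome 3 from 96557957 to 96561883) had 2121, 2249 and 914 CPM across CTL replicates 1 to 3, against 906, 396 and 504 CPM across Nelfb-/- replicates 1 to 3. Its groups did not overlap, but CTL replicate 3 and Nelfb-/- replicate 1 nearly met. The log2 fold change was -1.53 (SE 0.46, 95% interval -2.64 to -0.42, adjusted p = 0.071 by limma), which did not pass. It passed without CTL replicate 3 (-1.95, adjusted p = 0.022 by limma) and without Nelfb-/- replicate 1 (-1.87, adjusted p = 0.043 by limma). Exons of Txnip share 879 bases with Gm15441 on the other strand, which had a mean of 1.11 CPM over the 6 libraries.

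Arrdc4 (ENSMUSG00000042659, chromosome 7 from 68736995 to 68749241) had 5.73, 6.16 and 9.15 CPM across the controls, against 12.8, 19.2 and 26.2 CPM without Nelfb. Every Nelfb-/- library was above every CTL library, and the means were 7.01 ± 1.86 CPM (SD, n = 3) and 19.4 ± 6.67 CPM. Arrdc4 rose 2.702-fold on the fitted scale, a log2 fold change of 1.43 (SE 0.32, adjusted p = 0.030 by limma). Leaving out CTL replicate 1 or 2, or Nelfb-/- replicate 2 or 3, ended the call, with values of 1.19 to 1.41 and an adjusted p (limma) of 0.093 to 0.109.

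Txnip had the highest per-length level of the 10 genes in both groups, 564 ± 236 CPM per kb (SD, n = 3) in CTL and 193 ± 85.99 CPM per kb in Nelfb-/- cells, and its range did not overlap that of Pdk4, the next gene. Arrdc4 was the lowest in CTL, at 1.74 ± 0.461 CPM per kb, with no overlap with Pdk3 above it. Each of the other genes overlapped its neighbour in the order of CTL levels. In the order of levels in Nelfb-/- cells, neighbours overlapped except for Txnip above Pdk4 and Foxo1 above Arrdc4. The level of Txnip was 479, 472 and 129 times that of Arrdc4 in CTL replicates 1, 2 and 3 and 91.2, 26.7 and 24.9 times in Nelfb-/- replicates 1, 2 and 3, with no overlap between groups.

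Of 16 other tested arrestins, thioredoxin partners and ubiquitin ligases that act with them, 2 were called higher and 2 lower, 12.5% each against 7.58% and 3.64% of all genes, and the median log2 fold change was 0.12. Arrdc2, another alpha-arrestin, fell from 14.3, 15.7 and 14.96 CPM in CTL to 5.50, 3.78 and 5.39 CPM in Nelfb-/- cells (log2 fold change -1.62, SE 0.21, adjusted p = 0.0072 by limma). Slc2a4, the insulin-dependent glucose transporter GLUT4 that Txnip acts on, fell with a log2 fold change of -2.02 (SE 0.24, adjusted p = 0.0057 by limma), from 112, 99.5 and 155 CPM to 22.6, 34.1 and 33.3 CPM. Wwp2, a ubiquitin ligase, rose by a log2 fold change of 1.17 (adjusted p = 0.017 by limma). Nlrp3, the inflammasome sensor that Txnip can bind, was called higher at 3.70 (adjusted p = 0.021 by limma), with 0.676, 0.0933 and 0.612 CPM across the controls, against 8.72, 3.14 and 5.14 CPM without Nelfb. Nlrp3 is a gene of macrophages, and its order among Nelfb-/- libraries, but not among the controls, was that of the summed macrophage markers, whose part was not tested.

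The thioredoxins themselves had log2 fold changes near 0, 0.075 for Txn1 and -0.11 for Txn2. The thioredoxin reductases Txnrd1 and Txnrd2 had 0.75 and -0.46, and the glucose transporter Slc2a1 had -0.95. Among the arrestins, Arrdc1 had 0.52, and Arrdc3 had 0.28 with 246 CPM in Nelfb-/- replicate 1 against 60.9 to 92.8 CPM in the other 5 libraries. The ubiquitin ligases Itch, Nedd4, Nedd4l and Wwp1 had 0.17, -0.075, 0.57 and 0.84, and the stress gene Ddit4 had -0.61. None of these 12 genes passed the adjusted p.

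In 7 of the 9 genes other than Depp1, CTL replicate 3 was the control nearest to the mean of the Nelfb-/- libraries, and in 7 of the 9, Nelfb-/- replicate 1 was the library nearest to the mean of CTL. Among all genes tested these shares were 47.2% and 42.7%. The exceptions were the same genes on both sides, Foxo1 and Pdk1. The second principal component of all genes, with 27.7% of their variance, put CTL replicate 3 and Nelfb-/- replicate 1 at its opposite ends.

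The wider pathways were read from lists of further genes, with the members left out. In all, 28 of 164 different genes tested were called (17.1%, against 11.2% of all genes in either direction), a count that went from 7 without Nelfb-/- replicate 3 to 35 without CTL replicate 3. Of 28 upstream kinases and modifiers of FOXO factors, 2 were called higher (7.14%, near the 7.58% of all genes) and 3 lower (10.7%, against 3.64%), and the median was -0.044. Irs1, an insulin receptor substrate, fell with a log2 fold change of -1.03 (adjusted p = 0.038 by limma), Sirt3, a mitochondrial deacetylase, with -1.15 (adjusted p = 0.014 by limma) and Trib3, a pseudokinase that binds Akt, with -1.40 (adjusted p = 0.027 by limma). Skp2, the ubiquitin ligase subunit that targets Foxo1, rose with 1.55 (adjusted p = 0.027 by limma), as did Trib2, a pseudokinase of the same family as Trib3, with 1.82 (adjusted p = 0.043 by limma).

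Of 52 tested FOXO target genes, 3 were called, with a median of -0.25. Pck1, the key enzyme of glycerol and glucose synthesis, had 678, 616 and 55.9 CPM across the controls, against 2.94, 4.37 and 2.53 CPM without Nelfb, and CTL replicate 3 stood lowest among the controls (log2 fold change -6.47, SE 0.94, adjusted p = 0.0096 by limma). Klf15, a transcription factor of fasting, fell with -1.45 (adjusted p = 0.029 by limma). S1pr1, the sphingosine phosphate receptor, rose with 3.28 (adjusted p = 0.0068 by limma), from 1.53, 0.560 and 1.39 CPM to 13.2, 9.43 and 10.1 CPM. As a share, 3.85% of this list was called lower, close to the 3.64% of all genes, and 1.92% higher, against 7.58%.

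Of 37 tested fasting response genes, 12 were called lower and 1 higher, and the median log2 fold change was -0.79. These 12 are 32.4% of the list, against 3.64% of all genes called lower, and in 18 of the 37 no Nelfb-/- library reached the lowest CTL library, which held for 16.1% of all genes. Besides Pck1, the largest decreases were those of Plin5 (-4.76, adjusted p = 0.0033 by limma), a lipid droplet protein, Cpt1b (-2.74, adjusted p = 0.0080 by limma), a carnitine transferase of fatty acid oxidation, and Ehhadh (-2.40, adjusted p = 0.049 by limma), a peroxisomal oxidation enzyme. Cpt1a, the liver form of the same transferase, rose from 52.7, 53.9 and 41.9 CPM to 163, 82.1 and 93.6 CPM (1.13, adjusted p = 0.039 by limma). The summed adipocyte markers were lower in the same libraries, and their part in this list was not tested.

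Among 11 tested genes of the glucose-sensing axis of MondoA and ChREBP, 0 passed the limits with limma (2 had an unadjusted p under 0.05), against 11.2% of all genes called in either direction, and nothing is read from this count for so few genes. The median was -0.15. The axis regulates both Txnip and Arrdc4. Rgs16, a target of ChREBP, passed the adjusted p at 0.88 without a 2-fold change (adjusted p = 0.033 by limma). The 3 factors Mlxip (MondoA), Mlxipl (ChREBP) and their partner Mlx had log2 fold changes of -0.21, 0.11 and -0.15, with overlapping groups.

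**Figure D5:**
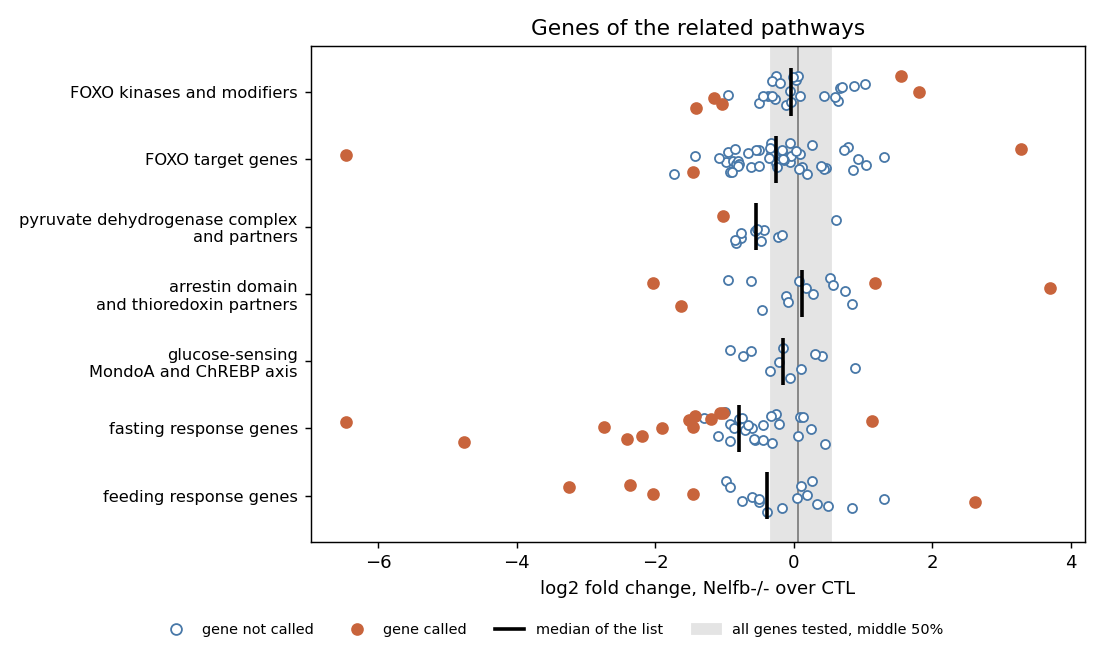
The horizontal axis is the log2 fold change of Nelfb-/- over CTL for each tested gene of 7 lists, orange where called, with a black line at the median of the list and a grey band for the middle 50% of all genes tested. The fasting response genes have the lowest median (-0.79).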

How the data were processed

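RNA-seq values of 3 CTL and 3 Nelfb-/- libraries were taken from the table deposited by the authors. The submitters' processing notes name STAR 2.7, Partek 9.0.20.0202 and mm10, and the annotation and use of strand are not given in the sources used here. The deposited values are CPM with an offset of 0.0001, since each column sums to 1000000 without it. The smallest step gave the depth of each library (17.2 to 29.4 M reads, with M for 1000000, so that 3 reads were worth 0.102 to 0.175 CPM). Of the values up to 20 reads, 68.5% to 71.0% were within 0.01 of a whole read, so no count test was run.

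Values were scaled to a common depth of 22.3 M reads, and limma 3.58.1 in R 4.3.3 was run on log2(reads + 1) of genes whose mean reached 10 reads, with an abundance trend and Benjamini-Hochberg adjustment over all genes. This scale makes the changes of low genes look smaller than they are. Called genes had an adjusted p of at most 0.05 and at least a 2-fold change, the limits of the study. The code was tested on simulated data. Levels between genes were compared per kb of merged GENCODE M21 exons. Gene positions are those of the deposited table, with the end set 1 base lower, as in GENCODE.

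The members, lists and limits were chosen with earlier results of these data known. Named genes were the members, Nelfb, the FOXO family, the pyruvate dehydrogenase and arrestin lists, in other lists at most the 4 largest called changes in each direction, the 5 genes nearest to Depp1, and markers of the cell types described, except 1 gene that is not reported here. Xist and the glucose-sensing and hypoxia genes named without a call were added after their values were seen. Plots were drawn with matplotlib 3.10.9. The alternatives were other pseudocounts, filters, a scaling, no variance trend, a replicate block and leaving out each library. The other assays of the study were not analysed here.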

Additional observations from a re-analysis of the deposited data

How the results depend on the processing

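Over 13 alternatives, the log2 fold changes of the 9 genes other than Depp1 gave 117 values, of which 104 kept their direction and side of the limits, 4 (all of Arrdc4) no longer passed the limits, 7 passed them and 2 changed sign. The 2 were those of Pdk1, at 0.19 without CTL replicate 3 and 0.16 without Nelfb-/- replicate 1, within a range of -1.06 to 0.19 over the 6 libraries left out. Of the 9 genes, 1 was called on all libraries (Arrdc4), 4 without CTL replicate 3, 3 without Nelfb-/- replicate 1, and 0 with limma without any one of the other 4 libraries, where 2 or 3 genes had an unadjusted p under 0.05. Over all genes, 11.2% were called on all libraries. Without CTL replicate 3, 1703 of 16325 genes tested were called higher and 776 lower. Without Nelfb-/- replicate 1, 1248 of 16131 were called higher and 707 lower. Without any one of the other 4 libraries, 290 to 629 genes were called higher and 136 to 320 lower. Counted over all 10 genes, the numbers were 2 on all libraries, 0 to 5 with 1 library left out and 4 with the replicate block, but the side of the limits on which Depp1 lay follows from how the set was chosen and is no test result. In the fits without 1 library, the genes called higher ranged from 290 to 1703 (1232 on all libraries), the genes called lower from 136 to 776 (592 on all libraries) and the called genes of the pathway lists from 7 to 35 (28 on all libraries). The lowest counts were those without Nelfb-/- replicate 3 and the highest those without CTL replicate 3, and the cause was not tested. Pseudocounts, filters, median-of-ratios scaling and no variance trend each left 1 of the 9 genes called. Calls that were higher made up 67.5% of all calls, and 62.9% with median-of-ratios scaling.

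Replicate numbers are shared by the groups, and the deviations of libraries with the same number correlated at 0.52, -0.39 and 0.52. Not every library correlated best with its own number. With 3 libraries in each group, such values cannot show whether the numbers pair the samples, and the main fit used no pairing. With the replicate block, 3 of the 9 genes passed, with Pdk4 (adjusted p = 0.026 by limma) and Txnip (adjusted p = 0.042 by limma) added, and 1505 genes were called higher and 670 lower.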

Other observations

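Genes of the fed state, which FOXO factors and fasting oppose, were also read as a list. Of 21 tested feeding response genes, 1 was called higher and 4 lower, or 4.76% and 19.0% against 7.58% and 3.64% of all genes tested. The median change of the list was -0.39 on the log2 scale. Acly, the enzyme that makes cytosolic acetyl-CoA, had 131, 125 and 436 CPM across CTL replicates 1 to 3, against 529, 1914 and 1642 CPM across Nelfb-/- replicates 1 to 3 (log2 fold change 2.62, SE 0.66, adjusted p = 0.044 by limma). Scd1, the stearoyl-CoA desaturase, fell from 28091, 26180.0 and 20552 CPM to 5387, 4948 and 4177 CPM (-2.36, SE 0.47, adjusted p = 0.021 by limma). Pnpla3, a lipid droplet hydrolase, fell with -1.45 (adjusted p = 0.013 by limma).

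By Pearson's r of log2 values over the 6 libraries, the 5 tested genes most like Depp1 were the clock gene Per3 (0.998), Zfp12 (0.997), Rab3gap1 (0.997), Wbp2 (0.996) and Gtpbp6 (0.996). Over 6 libraries in 2 groups such values are common, since 394 tested genes had an r above 0.95, and they share the library and its depth. Per3 had 26.1, 29.4 and 20.1 CPM across the controls, against 15.8, 7.97 and 9.51 CPM without Nelfb.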
